A study of Mus musculus with 4 samples.

Results

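The let-7 family with miR-98 was followed on 4 2-colour microRNA arrays that set mouse activated T cells carrying Foxp3 against activated T cells carrying a control vector. Members were taken by probe ID, as the probes whose ID is 7 with a single letter from a to i, and the probe of miR-98. The rule found 9 of the 171 miRNA probes: let-7a, let-7b, let-7c, let-7d, let-7e, let-7f, let-7g, let-7i and miR-98. Foxp3 is the lineage transcription factor of regulatory T cells, and transduction here means delivery of the gene, or of the vector alone, into T cells that had been activated. RNA of both kinds of cell was taken at 72 h and at 96 h, and each time point had 2 arrays with exchanged dyes. On replicate 1 of each time point the Foxp3 RNA carried Cy5 and on replicate 2 it carried Cy3. The mouse strain, the vector, the share of cells carrying Foxp3 and the number of animals are not given in the sources used here. A ratio shows no level, so the T cell identity could not be checked from marker levels.

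The let-7 miRNAs are small RNAs that pair with matching sites in messenger RNAs, chiefly through the bases near their 5′ end called the seed, and lower the output of those messages. The family is known for restraining growth and for holding cells in a differentiated state, with Ras, Myc and Hmga genes among its classic targets, and the RNA-binding protein Lin28 blocks its maturation. In T cells, let-7 is known to decline when the antigen receptor is engaged and to restrain cytokine and growth programmes. miR-98 carries another number but belongs to the same family.

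The mature sequences are shown because all 9 members share their seed and differ by few bases elsewhere, which bears on how separately an array can read them. They are the RefSeq entries for the mouse (build GRCm38.p6), matched by name for 9 of 9 members; the capitals mark the seed, bases 2 to 8.
let-7a: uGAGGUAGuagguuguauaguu
let-7b: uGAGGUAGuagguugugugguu
let-7c: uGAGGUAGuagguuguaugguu
let-7d: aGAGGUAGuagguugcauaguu
let-7e: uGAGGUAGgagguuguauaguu
let-7f: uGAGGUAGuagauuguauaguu
let-7g: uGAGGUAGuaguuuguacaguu
let-7i: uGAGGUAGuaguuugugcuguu
miR-98: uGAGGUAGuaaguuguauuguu

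Every mature form was 22 bases long. The seed GAGGUAG stood in 11 of 1679 named mature miRNAs of the table (0.655%), the 9 members and let-7k and miR-1961, for which no probe was used here.

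Counted from the 5′ end against let-7a, let-7c differed by A19G, let-7e by U9G and let-7f by G12A, 1 base each. let-7b differed by A17G and A19G, let-7d by U1A and U16C, let-7g by G12U and U18C, and miR-98 by G11A and A19U. let-7i was the farthest from let-7a, with G12U, A17G, U18C and A19U. The probe sequences were not used here, so how far each probe tells these forms apart was not tested.

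The members come from several loci, of which those the RefSeq miRNA table (GRCm38.p6) pairs with these mature forms are given here. let-7a at chr13:48538239-48538260, let-7f at chr13:48537889-48537910 and let-7d at chr13:48536078-48536099, all on the minus strand, lie in 1 cluster. Another let-7a gene, Mirlet7a-2, lies beside Mir100 and Mir125b-1. let-7c and let-7b neighbour each other at chr15:85706616-85706637 and chr15:85707325-85707346 on the plus strand, and the other entry for let-7c stands at chr16:77599672-77599693, on the plus strand. let-7f and miR-98 neighbour each other on the plus strand at chrX:151912353-151912374 and chrX:151913229-151913250. let-7e lies at chr17:17830366-17830387 (plus), let-7g at chr9:106178846-106178867 (plus) and let-7i at chr10:122985698-122985719 (minus). A probe for a mature form reads all of its loci together.

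The deposited table gave a log ratio for each of 178 probes, 7 of them control RNAs, on every array. Base, direction and centring were not stated, and values were read as log2. The median of the miRNA probes was -0.59 and -0.83 on replicates 1 and 2 of 72 h, and 1.27 and 0.02 on those of 96 h, so the 96 h replicate 1 array stood apart. Across the 171 probes, which are not independent replicates, the exchanged arrays had r = 0.66 for 72 h and r = -0.12 for 96 h as deposited. Ratios set by the samples alone would give a negative r if deposited as Cy5 over Cy3. They would give a positive r if turned to Foxp3 over control before deposit. The sign of r at 72 h is that of the second reading, and the small r at 96 h has the sign of the first. The direction is therefore not settled. Values were taken as channel 2 (Cy5) over channel 1 (Cy3), and those from arrays with Foxp3 in Cy3 were multiplied by -1, so "likely lower" means lower with Foxp3 in that reading. In these bulk samples, fewer cells of a type and less RNA per cell cannot be told apart. The 2 arrays of a time point share their RNAs and count as 1 replicate, so n was 2 time points. No label says whether these came from separate cultures. The p-values measure only the spread between the time points, which may be technical. In the main fit that spread was pooled over all probes and is not each member's own.

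As deposited, 7 of the 9 members, let-7a, b, c, d, f, g and i, lay apart from let-7e and miR-98 on both arrays with Foxp3 in Cy3. On the arrays with Foxp3 in Cy5 let-7e did not stand apart. It was at -0.61 at 72 h, next to let-7i at -0.59, and at 1.04 at 96 h, within the range of the 7. This grouping was made after the values were seen and has no test. On both arrays with Foxp3 in Cy3 these 7 stood far above the array median, from 0.43 to 1.03 at 72 h against a median of -0.83, and from 0.84 to 1.69 at 96 h against 0.02. On the arrays with Foxp3 in Cy5 they stood at or above the median at 72 h, from -0.59 to 0.006 against -0.59, and below it at 96 h, from -0.27 to 1.20 against 1.27. let-7e lay close to the array median on 3 arrays, within 0.04, and at -0.23 relative to it on replicate 1 of 96 h. miR-98 lay below the array median on 3 arrays and above it on the 96 h replicate 1 array.

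**Figure D1:**
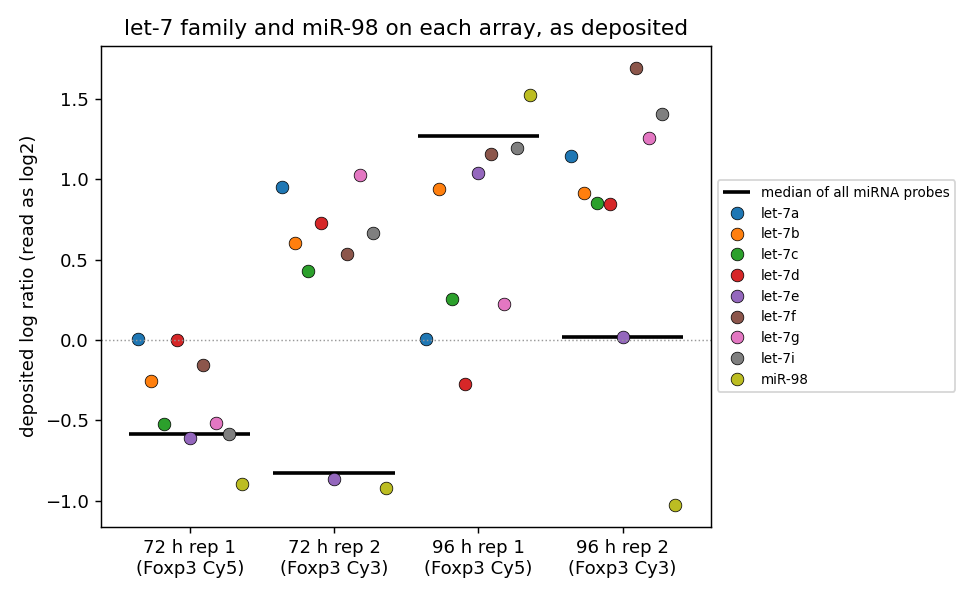
Deposited log ratio (vertical axis, read as log2) of each of the 9 members on each of the 4 arrays (horizontal axis), before any sign was turned; the black bar is the median of the 171 miRNA probes of that array. On both arrays with Foxp3 in Cy3, 7 members lie between 0.43 and 1.69 and above the bar, while let-7e lies near the bar and miR-98 below it.

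let-7g, which has no other let-7 gene beside it, had the lowest mean ratio of the family. It was deposited at -0.52 and 1.03 for 72 h, and at 0.23 and 1.26 for 96 h. Turned, it was below 0 on both arrays of 72 h and on replicate 2 of 96 h, and above 0 on replicate 1 of 96 h. The time point means were -0.77, or 1.71-fold likely lower, and -0.52, or 1.43-fold, and let-7g ranked as number 3 from the lowest of 171 probes at 72 h and number 18 at 96 h. On replicates 1 and 2 taken singly it ranked as number 90 and 5 at 72 h, and as number 25 and 20 at 96 h. On replicate 1 of 72 h, 78.4% of all probes lay below 0. Over both, the mean log2 ratio was -0.65 ± 0.18 (SD, n = 2; limma adjusted p = 0.578).

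let-7i, also encoded apart from the other let-7 genes, had deposited values of -0.59 and 0.67 at 72 h and of 1.20 and 1.41 at 96 h. It was thus below 0 after turning on both arrays of 72 h and split at 96 h. Its means were -0.63 (1.54-fold likely lower) at 72 h and -0.10 (1.07-fold) at 96 h. let-7g and let-7i were the members with a 72 h mean past 1.5-fold and 1 sign on both arrays. Neither met this at 96 h.

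Of the chromosome 13 cluster, let-7a had deposited values of 0.006 and 0.95 at 72 h and of 0.004 and 1.14 at 96 h. On both time points its ratio was thus close to 0 with Foxp3 in Cy5 and clearly above 0 with Foxp3 in Cy3. let-7d had 0 and 0.73 at 72 h and -0.27 and 0.84 at 96 h. It was the 1 member below 0 after turning on both arrays of 96 h. let-7f had -0.16 and 0.54 at 72 h and 1.16 and 1.69 at 96 h, so both its 96 h values were high as deposited and of opposite signs after turning. The turned means of these 3 were alike at 72 h, at -0.47 for let-7a, -0.36 for let-7d and -0.35 for let-7f. At 96 h they were -0.57, -0.56 and -0.27.

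Of the pair on chromosome 15, let-7b had deposited values of -0.25 and 0.60 at 72 h and of 0.94 and 0.91 at 96 h. let-7c, which differs from let-7b by 1 base, had -0.52 and 0.43 at 72 h and 0.25 and 0.85 at 96 h. Both were below 0 after turning on each array of 72 h, with means of -0.43 and -0.48. At 96 h the arrays of each disagreed in sign, and the means were 0.01 for let-7b and -0.30 for let-7c.

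let-7e, encoded with miR-99b and miR-125a, had deposited values of -0.61 and -0.87 at 72 h and of 1.04 and 0.02 at 96 h. Its deposited sign was the same with either dye at both time points, as it was for let-7a. The same held for 71.3% of the 171 probes at 72 h and 43.9% at 96 h, and for 7 of the 9 members at 96 h. Its turned means were 0.13 at 72 h and 0.51 at 96 h, over both 0.32 ± 0.27 (SD, n = 2; limma adjusted p = 0.677). miR-98 had -0.89 and -0.92 at 72 h, again 1 sign on both dye orientations, and 1.53 and -1.03 at 96 h, where the sign did turn. Its turned means were 0.01 at 72 h and 1.28 at 96 h, or 2.42-fold likely higher, the highest of the family in this reading. Without turning, its 96 h mean of 0.25 was the lowest of the family. Over both time points it had 0.64 ± 0.89 (SD, n = 2; limma adjusted p = 0.578), an SD larger than the mean.

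**Figure D2:**
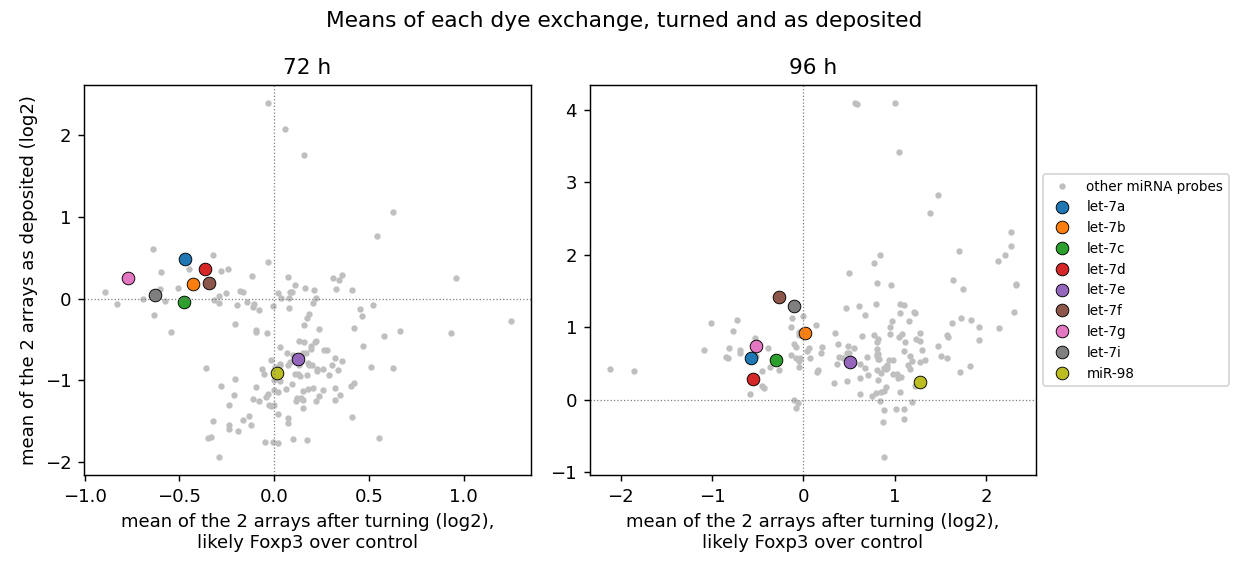
For 72 h (left) and 96 h (right), the mean of the 2 arrays after turning (horizontal axis, log2, likely Foxp3 over control) against the mean of the same arrays as deposited (vertical axis, log2), for the 9 members in colour and the other miRNA probes in grey. At 72 h 7 members lie together at turned means of -0.77 to -0.35, while let-7e and miR-98 lie at 0.13 and 0.01 with deposited means of -0.74 and -0.91; at 96 h miR-98 lies at 1.28.

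Over both time points the 7 members had means from -0.65 (let-7g) to -0.21 (let-7b), with let-7a at -0.52 ± 0.07, let-7d at -0.46 ± 0.14, let-7c at -0.39 ± 0.13, let-7i at -0.37 ± 0.37 and let-7f at -0.31 ± 0.05 (SD, n = 2). The limma standard error, pooled over all probes, was 0.479, larger than the steps between neighbours in this order, so the order among the 7 is not resolved. The SD leaves out the spread between exchanged arrays. Leaving out 1 array at a time moved the mean of let-7g between -1.02 and -0.27, of let-7a between -0.81 and -0.23, of let-7d between -0.64 and -0.28 and of let-7c between -0.66 and -0.11. For let-7b, let-7f and let-7i the sign changed, with 0.26, 0.41 and 0.29 without 96 h replicate 2. The mean of miR-98 moved between 0.19 and 1.10, and that of let-7e between -0.049 and 0.69. None of the 9 passed limma's adjusted p of 0.05, where 0% of the 171 probes did. None of the 9 had an unadjusted limma p under 0.05 either, against 16 of all 171 probes.

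At 72 h the median of the members was -0.43 against 0.07 over all miRNA probes, and 7 of the 9 lay below 0 against 69 of 171. The 43 lowest probes of 72 h held those 7 members. This placing rested on replicate 2, where they ranked as number 5 to 25 from the lowest. On replicate 1 they ranked as number 86 to 136, at or above the array median. Without 72 h replicate 1 the member median was -0.60 against 0.83 over all probes. Without 72 h replicate 2 it was -0.52 against -0.59, so not lower. At 96 h the median was -0.27 against 0.805, 6 of 9 lay below 0 against 44 of 171, and the 43 lowest probes held 6 members. The 96 h median was -0.91 without 96 h replicate 1 (8 of 9 below 0), 0.94 without 96 h replicate 2 (1 of 9), and -0.89 after subtracting the miRNA median of each array. Without turning, the medians of the members were 0.18 at 72 h against -0.67 over all probes, with 3 of 9 below 0 against 129 of 171, and 0.57 at 96 h against 0.65, with 0 of 9 below 0 against 10 of 171. These are descriptions with 1 replicate per time point and no test.

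Likely lower past 1.5-fold with 1 sign on both arrays were 2 of 9 members at 72 h (let-7g and let-7i), where 5.26% of all probes were. No member was likely higher at 72 h, where 2.34% of all probes were. At 96 h none of the 9 was likely lower against 5.26% of all probes, and miR-98 was likely higher against 46.2%, so its call is the common one at 96 h. No member had 1 sign on all 4 arrays, against 7.60% of the probes. Single arrays decided these counts. Without 72 h replicate 1, 5 members were likely lower at 72 h (11.1% of all probes) and without 72 h replicate 2, 3 members were, among them let-7e and miR-98 (50.3%). Without 96 h replicate 1, 7 members were likely lower at 96 h (32.7% of all probes), and without 96 h replicate 2, none was, while 5 were likely higher (76.6%). Without 72 h replicate 1, limma called let-7a at -0.76 (adjusted p = 0.0477) and miR-98 at 1.10 (adjusted p = 0.0257), in a fit that called 55% of all probes.

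The arrays share no centring, so the family was also read against the median of the miRNA probes on each array. This lowered every turned mean by 0.12 at 72 h and by 0.62 at 96 h. At 96 h the means of all 7 members were then likely lower past 1.5-fold with 1 sign on both arrays, where 25.1% of all probes passed, with let-7a 2.29-fold, let-7d 2.27-fold, let-7g 2.20-fold, let-7c 1.89-fold, let-7f 1.86-fold, let-7i 1.66-fold and let-7b 1.53-fold lower. On replicate 1 of 96 h alone, let-7i, let-7f and let-7b stood at -0.07, -0.11 and -0.33 relative to the array median, so these means rested mostly on replicate 2. miR-98 was still likely higher (17.5%), and let-7e was at -0.11. At 72 h no member passed on the likely lower side (3.51% of all probes) or on the likely higher side (1.17%), although let-7g averaged 1.86-fold lower. The 2 arrays of 72 h disagreed in sign for the members. On replicate 1 the turned values of the 7 stood at 0 to 0.59 relative to the array median, and on replicate 2 at -1.85 to -1.26. No member had 1 sign on all 4 centred arrays, against 7.60% of the probes.

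Centred this way, limma still called none of the 9, where it called 1.17% of all probes. Among the members, let-7g at -1.02 ± 0.17 and let-7a at -0.89 ± 0.42 (SD, n = 2) were the lowest, with adjusted p of 0.224 and 0.261. In all, 4 members had an unadjusted limma p under 0.05 (let-7a, let-7c, let-7d and let-7g), against 26 of 171 probes. Read against the U6 and tRNA probes instead, the 96 h median of the members was above 0, at 0.06, and let-7e and miR-98 were likely higher past 1.5-fold (63.2% of all probes), while let-7g and let-7i still passed on the likely lower side at 72 h (5.26%). Whether the 7 members lay below 0 at 96 h thus depended on the scaling. Centring moves all probes of an array alike, so it cannot change their place among the probes, and in the likely reading the 7 lay below the array median on both arrays of 96 h.

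In the other reading, in which the values would have been turned to Foxp3 over control before deposit, the direction of the members was opposite. The 7 then had means above 0, from 0.25 (let-7c) to 0.81 (let-7f), and let-7e and miR-98 had means of -0.10 and -0.33. let-7b, let-7f, let-7g and let-7i passed 1.5-fold as higher at 96 h, where 33.9% of all probes did. let-7e and miR-98 passed as lower at 72 h, where 53.2% did. With this reading centred on the miRNA medians, 6 members passed as higher at 72 h, against 51 of 171 probes. At 96 h 0 members then did, against 18 of 171, so the time point of the calls also depended on the centring. In both readings let-7e and miR-98 lay on the other side of 0 from the 7, as deposited.

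**Figure D3:**
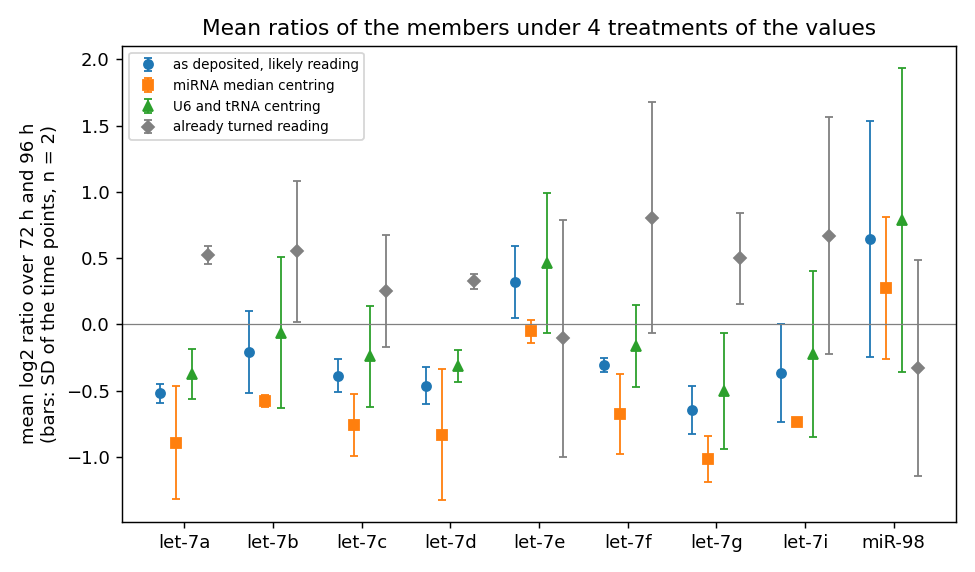
Mean log2 ratio over 72 h and 96 h (vertical axis) of each member (horizontal axis), with bars for the SD of the 2 time points, under 4 treatments of the values. In the likely reading 7 members lie below 0 with each of the 3 scalings shown, let-7g lowest at -0.65 as deposited, and in the already turned reading they lie above 0.

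Between 72 h and 96 h, only miR-98 among the members differed by 1.5-fold or more with no overlap of the arrays. After turning it had -0.89 and 0.92 for 72 h, and 1.53 and 1.03 for 96 h, so the gap between the time points was small beside the spread at 72 h. Of all probes 7.02% differed in this way, and 24% did after centring on the miRNA medians, where miR-98 was again the member that did. Without 72 h replicate 1 no member differed, where 22 of 171 probes did. Without 72 h replicate 2, 2 members differed, against 104 of 171 probes. Without 96 h replicate 1, 4 members did, against 56 of 171, and without 96 h replicate 2, 7 members did, against 120 of 171. In limma's time by Foxp3 term over the 4 arrays none of the 9 passed (adjusted p = 0.990 for each), where 0% of all probes did and 0 had an unadjusted p under 0.05. This term takes the exchanged arrays, which share their RNAs, as replicates, so its p covers technical spread alone. The difference for miR-98 was 1.26 with an unadjusted limma p of 0.376.

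Profiles of the members were compared with each other as the Euclidean distance between their 4 log2 ratios, which neither turning the sign nor centring the arrays changes. Over the 21 pairs of the 7 members the median distance was 0.939, and over the 14 pairs that join let-7e or miR-98 to the 7 it was 2.53, against 2.14 over all 14535 pairs of miRNA probes. The 7 were grouped after these same values were seen, so their smaller distance partly follows from that choice and is no support for it. let-7e and miR-98 stood 1.19 apart. The nearest pair was let-7a and let-7d, at 0.463, with 2 base differences, and the farthest let-7a and miR-98, at 3.37, also with 2. The pairs that differ by 1 base were let-7b with let-7c at 0.761, let-7a with let-7c at 0.835, let-7a with let-7f at 1.35 and let-7a with let-7e at 2.45. Over the 36 pairs Spearman's rho between base differences and distance was 0.13, given as a description since pairs share members and arrays. The substitution U9G thus went with a larger distance than the 4 differences between let-7f and let-7i, which lay 0.538 apart. The members with the most base differences, let-7d and let-7i, with 6, lay 1.68 apart.

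**Figure D4:**
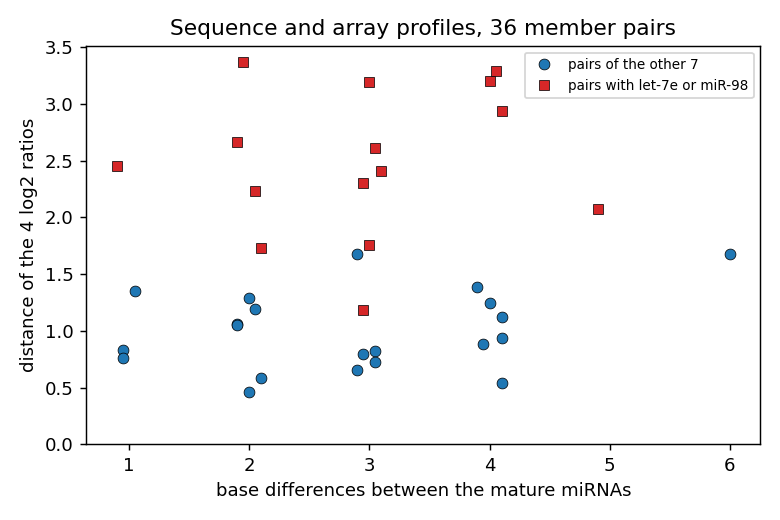
Distance between the 4 log2 ratios of 2 members (vertical axis) against the number of base differences between their mature sequences (horizontal axis, points set slightly apart sideways) for the 36 pairs. Pairs of the 7 members lie between 0.463 and 1.68 at any number of differences, and pairs with let-7e or miR-98 between 1.19 and 3.37. The 7 were grouped after these values were seen.

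The miRNA probes nearest to the median profile of the 9 members were 1org-26a at a distance of 0.621, 1org-106b at 0.679, 1org-7d* at 0.716, 1org-30c at 0.734 and 1org-103 at 0.735. The members shaped this profile over the 4 arrays, so their own nearness to it is no result. Even so, 21 other probes lay nearer to it than let-7a (1.15), 34 nearer than let-7d (1.33), 48 nearer than let-7e (1.73) and 100 nearer than miR-98 (2.56). The probe 1org-7d*, whose name marks the opposite strand of the let-7d precursor, had turned values of -0.09 and -0.28 at 72 h and of 0.84 and -0.46 at 96 h. Its means of -0.18 and 0.19 lay nearer to 0 than those of let-7d, at -0.36 and -0.56.

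Several let-7 genes lie beside miRNAs of the miR-99/100 and miR-125 families, within 50 kb in the RefSeq gene table. Mirlet7e neighbours Mir99b and Mir125a, Mirlet7c-1 neighbours Mir99a and Mir125b-2, and Mirlet7a-2 neighbours Mir100 and Mir125b-1. All 5 of these neighbours were measured. At 72 h, 4 of 5 had means above 0, with a range from -0.08 to 0.63. At 96 h 5 of 5 were above 0, from 1.05 to 1.58, with a median of 1.14 against 0.805 over all miRNA probes. Of all miRNA probes, 40.4% had means below 0 at 72 h and 25.7% at 96 h. A mean above 0 was thus the common case at both time points. Among the 5 neighbours, 1org-99a was the highest at 96 h, with turned values of 2.45 and 0.71, and 1org-125a had 1.62 and 0.67. The probe 1org-99b was deposited above 0 on all 4 arrays, at 1.69, 0.43, 4.47 and 2.37, so its sign did not turn with the dyes. The sign of its neighbour let-7e did not turn with the dyes either. let-7e was deposited below 0 on both arrays of 72 h and above 0 on both arrays of 96 h.

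Markers of cell types other than T cells were set beside these values. Of 20 listed, 14 were matched to a probe by exact ID (erythroid, myeloid, muscle, neural, liver, epithelial and stromal or endothelial miRNAs). Their median was 0.08 at 72 h, with 6 of 14 below 0 and a range from -0.35 to 0.55, and 1.22 at 96 h, with 1 of 14 below 0 and a range from -0.53 to 1.93. Over all miRNA probes the 96 h median was 0.805, with 44 of 171 below 0. The turned marker median was 2.53 on replicate 1 of 96 h and 0.40 on replicate 2. Muscle rested on 1 probe, 1org-206. The probes 1org-1b, 1org-1d, 1org-133 and 1org-128 have names close to unmatched entries and were left out. Their 96 h means were 0.92, 0.90, 0.82 and 1.06. Of 6 T cell miRNAs, 5 were matched in the same way, with medians of 0.07 and -0.28 and 3 of 5 below 0 at 96 h. The probe 1org-181, with a 96 h mean of 0.35, was left out there. Ratios do not show which of these markers were at background, and their part in the values of the 9 members was not tested.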

How the data were processed

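RNA of Foxp3-carrying and control T cells was compared on 4 2-colour arrays, per the labels. The authors' deposited value table was used, read as log2 ratios; their scanner, background correction, normalization, base and direction are not given in the sources used here. Scanner intensities were not used. Values ran from -2.27 to 5.10. The sign was turned on arrays with Foxp3 in Cy3, and both arrays of each time point were averaged. An intercept-only limma fit (limma 3.58.1, R 4.3.3) over the 171 miRNA probes had 1 residual degree of freedom per probe. Its p-values in the main fit used a variance pooled over all probes. P-values were Benjamini-Hochberg adjusted over all probes. Counts past 1.5-fold asked for that mean and 1 sign on both arrays. The script was tested on simulated data with independent normal noise, 1 spread for all probes and no shift of whole arrays. There the limma fit called 6.2% of probes with a true log2 ratio of 1, 68.4% at 2 and 99.1% at 4. The arrays here do have such shifts, so these shares may not hold for them. A member that did not pass may thus still differ. The platform annotation listed 6 of the 9 members; the others were named by probe ID. Named probes were all members, miRNAs beside let-7 genes, the 5 probes nearest to the members' median profile, and the member pairs with the fewest and most base differences; let-7f with let-7i, let-7e with miR-98, the nearest and farthest profiles and the values of 1org-7d* were chosen after the values were seen. Members, lists and tests were chosen with earlier results of these data known. Alternatives were other centrings, scaling, values taken as turned before deposit, natural logs, a 2-fold threshold, each array left out, a dye block, robust variance, and control probes included; the already turned reading with centring was added after the data were seen. The number of arrays limits the precision.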

Additional observations from a re-analysis of the deposited data

How the results depend on the processing

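Of 108 alternative values of the members' mean ratios over both time points, 82 kept the sign and the side of the limma threshold, 24 changed sign and 2 passed the threshold. The cause was not tested. In the already turned reading the means were 0.53 for let-7a, 0.55 for let-7b, 0.25 for let-7c, 0.33 for let-7d, -0.10 for let-7e, 0.81 for let-7f, 0.50 for let-7g, 0.67 for let-7i and -0.33 for miR-98. With miRNA median centring in that reading they were 0.56, 0.58, 0.28, 0.36, -0.072, 0.84, 0.53, 0.70 and -0.30. In the likely reading let-7e turned to -0.051 with miRNA median centring and to -0.043 with centring and scaling. Leaving out 1 array at a time gave means from -0.049 (without 72 h replicate 2) to 0.69 for let-7e. The means ran from -0.67 to 0.26 for let-7b, from -1.02 to 0.41 for let-7f and from -1.02 to 0.29 for let-7i, the lowest without 96 h replicate 1 and the highest without 96 h replicate 2.

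The 72 h median of the members, -0.43, was -0.55 with miRNA median centring and -0.57 with centring and scaling. It was 0.18 in the already turned reading and 0.88 with that reading centred. Without 72 h replicate 1 it was -0.60, against 0.83 over all probes. Without 72 h replicate 2 it was -0.52, against -0.59. Members past limma numbered 0 to 2 without 1 array, and 0 with a replicate block for dye orientation (lowest adjusted p of a member 0.800). The replicate numbers stand for dye orientation and pair no samples.

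Counts over all 171 miRNA probes stand in brackets. Likely lower members at 72 h were 0 with miRNA median centring (6), with centring and scaling (6), at 2-fold (0), and in the already turned reading centred (25). They were 4 with natural logs (15), 5 without 72 h replicate 1 (19) and 3 without 72 h replicate 2 (86). Likely higher members at 72 h were 6 in the already turned reading centred (51). They were 2 without 72 h replicate 1 (105) and 0 without 72 h replicate 2 (8). Likely lower members at 96 h were 7 with miRNA median centring (43), 6 with centring and scaling (38) and 1 with natural logs (13). They were 7 without 96 h replicate 1 (56) and 0 without 96 h replicate 2 (2). Likely higher members at 96 h were 2 with U6 and tRNA centring (108), 0 with centring and scaling (21) and 0 in the already turned reading centred (18). They were 4 in the already turned reading (58), 1 without 96 h replicate 1 (41) and 5 without 96 h replicate 2 (131). Members with 1 sign on all arrays were 1 with U6 and tRNA centring (let-7g, 21), 1 in the already turned reading (let-7a, 12) and 1 with that reading centred (let-7e, 34). They were 2 without 72 h replicate 1 (93) and 0 without 72 h replicate 2 (14). They were 5 without 96 h replicate 1 (29) and 0 without 96 h replicate 2 (30). Members that differed between time points were 4 with U6 and tRNA centring (81), 4 in the already turned reading (116) and 0 with that reading centred (35). Without 1 array they were 0 to 7, with the counts over all probes given above.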
